A study of Mus musculus with 16 samples.

Results

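Cultures that expressed an unmutated short hairpin RNA were compared with cultures that expressed the same hairpin with 5 point mutations. The comparison used the 4 libraries labelled shRNA and the 4 labelled shRNA_5bp, which are 8 of the 16 libraries of the series, and all 19479 genes that passed a filter on low counts, of 55335 in the count table. All groups were Mus musculus primary forebrain neuronal cultures of perinatal origin, transduced with a lentiviral vector, and total RNA was sequenced after depletion of ribosomal RNA. The other 8 libraries carried an empty vector (Empty_Vector, 4 libraries) or the hairpin with 2 point mutations (shRNA_2bp, 4 libraries). The empty vector is given below as a reference level. The labels name neither the transcript the hairpin was directed at, nor its sequence, nor the promoter that drives it, nor the strain or age of the cultures. Whether replicate libraries were grown as separate cultures is not stated either, and p-values therefore measure the spread between these libraries, which may be technical.

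A short hairpin RNA enters the cell's microRNA pathway: Dicer cuts it, an Argonaute protein takes up a guide strand, and transcripts that pair with the guide are cleaved or destabilised. Extensive pairing leads to cleavage by Ago2. Pairing of the guide's seed alone, the short stretch near its 5′ end that also defines microRNA families, lowers transcripts with a matching site in the 3′ untranslated region (UTR), usually by a modest amount. A hairpin with point mutations is used as a control because it should no longer cleave the intended transcript, while its altered guide has a seed of its own.

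The unmutated libraries held 36143806 to 41152791 counts, the 5-mutation libraries 35521472 to 47401867 and the empty vector libraries 33795369 to 46187568. In a principal component analysis of the 8 libraries, the first component (60.5% of the variance) ran from -49.11 to -40.22 in the unmutated libraries and from 41.72 to 49.78 in the 5-mutation libraries. On the second component (13.8%), 5-mutation library 2 stood at -39.71 and 5-mutation library 3 at 44.77, while the other 6 libraries lay between -8 and 6.08. Library 2 had the highest Malat1 (6217 CPM, a count scaled to library size with TMM factors) and Meg3 (2632 CPM) of its group, and library 3 the lowest of both (3942 and 1540 CPM). Results that rest on these 2 libraries are given with and without them.

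With edgeR's quasi-likelihood test and Benjamini-Hochberg adjustment, 10771 genes (55.3%) passed an adjusted p of 0.05, of which 5216 (26.8% of genes tested) were higher and 5555 (28.5%) lower with the unmutated hairpin. Most differences were modest, with a median absolute log2 fold change of 0.52 among the genes called. The libraries of the groups did not overlap for 46.7% of the genes tested. Over 2-fold, 1175 genes (6.03%) were higher and 1002 (5.14%) lower, and over 4-fold 215 were higher and 167 lower. The median log2 fold change over all genes was -0.03. Among protein-coding genes, 9392 of 14470 (64.9%) were called, 4662 of them higher and 4730 lower. The counts of gene lists given below are to be read beside these shares and those over all genes. Without 5-mutation libraries 2 and 3 together, 9936 genes were called, 9445 of them shared with the full set and none with the opposite sign. All log2 fold changes below are the unmutated minus the 5-mutation hairpin, with their standard errors.

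**Figure D1:**
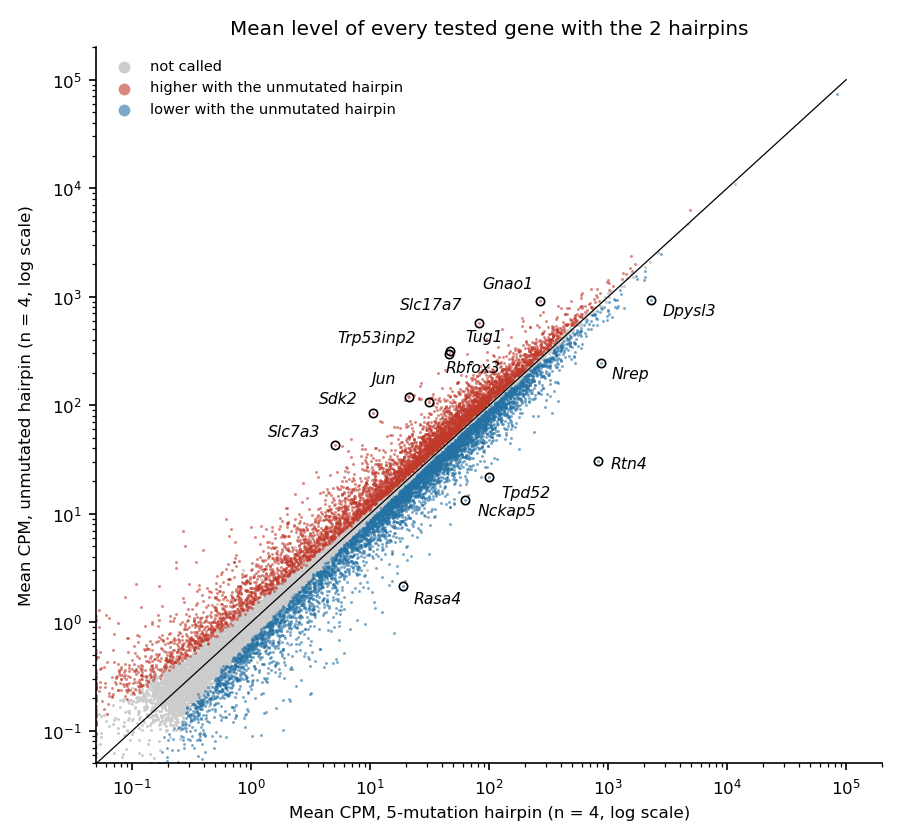
Mean CPM of each gene tested with the unmutated hairpin (vertical axis) against the 5-mutation hairpin (horizontal axis), both on log scales, with 4 libraries a group. Red points were called higher and blue points lower with the unmutated hairpin, grey points were not called, the line marks equal levels, and a mean below 0.05 CPM is drawn at 0.05. Rtn4 lies farthest below the line among the circled genes, at 30.5 against 828 CPM.

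Among the genes that met the naming rule, the largest fall was that of Rtn4, which encodes the reticulon Nogo, a membrane protein of the endoplasmic reticulum whose isoform Nogo-A limits neurite growth. Rtn4 (ENSMUSG00000020458.16, GRCm38 chromosome 11, 29692947 to 29744331) was at 30.9, 31.3, 29.9 and 29.9 CPM in the 4 unmutated libraries. It was at 836, 773, 845 and 856 CPM in the 5-mutation libraries. The groups did not overlap, and the 5-mutation libraries lay near the empty vector, whose mean was 863 CPM. The log2 fold change was -4.76 ± 0.05 (adjusted p = 1.09e-25), and it was -4.80 without 5-mutation libraries 2 and 3. Eml6, a gene on the opposite strand that overlaps Rtn4, was at 123 ± 4.25 CPM against 78.2 ± 9.51 CPM (SD, n = 4 each) and was higher with the unmutated hairpin (0.65 ± 0.06, adjusted p = 4.05e-09). The strand setting of the counting is not given in the sources used here, so reads of overlapping genes on opposite strands may not have been told apart.

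Of the reticulons and Nogo receptor complex genes, 5 rose and 4 fell among 14 tested. Rtn1 (-0.15 ± 0.04, adjusted p = 0.00267) and Rtn3 (-0.22 ± 0.04, adjusted p = 0.00011), the other abundant neuronal reticulons, fell by far less than Rtn4. Rtn2 was not called, at 94.0 against 91.7 CPM. Among receptors and co-receptors for Nogo, Rtn4rl1 (0.63 ± 0.06, adjusted p = 2.76e-09) and Tnfrsf19 (1.07 ± 0.08, adjusted p = 5.8e-10) rose, and Lingo2 fell (-0.34 ± 0.06, adjusted p = 5.76e-05). The receptor Rtn4r was at 52.0 against 48.2 CPM and Lingo1 at 204 against 210 CPM, and neither was called.

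Below Rtn4, the genes with the largest falls that met the naming rule included Rasa4, Crispld2, Rxfp1, Cort, Kcnmb2, Htr2a, Gipr, Hcrtr2, Col9a1, Pla2g4e, Sostdc1, Nckap5 and Tpd52. Several are receptors: Rxfp1 binds relaxin, Htr2a serotonin, Gipr the gut hormone GIP and Hcrtr2 the orexins. Rasa4, a GTPase-activating protein for Ras, was at 2.21, 1.73, 2.69 and 2.04 CPM with the unmutated hairpin. With the 5-mutation hairpin it was at 20.8, 19.1, 18.4 and 17.6 CPM, and with the empty vector at a mean of 2.62 CPM. It was thus high in the 5-mutation libraries alone among these 12 libraries (-3.13 ± 0.12, adjusted p = 2.71e-15). Crispld2 had the same order, with means of 2.40, 19.5 and 2.44 CPM in the unmutated, 5-mutation and empty vector groups (-3.02 ± 0.09, adjusted p = 1.12e-17).

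Tpd52, a coiled-coil protein linked to membrane trafficking, behaved differently against the empty vector. It was at 22.9, 21.4, 22.1 and 21.4 CPM with the unmutated hairpin and at 105, 93.3, 102 and 98.96 CPM with the 5-mutation hairpin. The empty vector libraries, at 77.7 to 80.3 CPM, lay between the groups and nearer the 5-mutation libraries (-2.19 ± 0.04, adjusted p = 5.65e-20). For 13 of the 15 lowest genes the empty vector mean was nearer the unmutated group, and for the other 2, Rtn4 and Tpd52, nearer the 5-mutation group. Tpd52 was the last gene inside this list, and Nxph2 (-2.18) the first outside it.

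Among the remaining genes of this list, Htr2a was at 1.51 to 3.92 CPM with the unmutated hairpin and 11.2 to 17.2 CPM with the 5-mutation hairpin (-2.67 ± 0.24, adjusted p = 1.41e-07). Nckap5 was at 12.2 to 15.3 CPM against 60.6 to 64.0 CPM, with an empty vector mean of 14.98 CPM (-2.22 ± 0.08, adjusted p = 1.01e-15). Kcnmb2, an auxiliary subunit of the BK potassium channel, was at 2.19 ± 0.22 against 14.3 ± 0.50 CPM (-2.705 ± 0.10, adjusted p = 4.67e-16). Cort, a neuropeptide related to somatostatin, was at 1.52 ± 0.31 against 10.8 ± 1.47 CPM (-2.82 ± 0.19, adjusted p = 6.36e-11). Apart from Rtn4, Tpd52 and Nckap5, all genes of this list had a mean below 10 CPM in the unmutated group.

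Among the genes that met the naming rule, the 15 that rose furthest ranged from 3.07 down to 2.57 on the log2 scale. They included Slc7a3, Sdk2, Deptor, Cpne8, Slc17a7, Eif4ebp1, Trp53inp2, Tug1, Ramp1, Dnm3, Plcb4, Tnc, Hrk and Tmem47. The gene just outside was Fam107a (2.55). Slc17a7 encodes VGLUT1, the vesicular glutamate transporter of cortical and hippocampal excitatory neurons. It was at 596, 531, 565 and 598 CPM with the unmutated hairpin and at 86.4, 74.3, 86.3 and 79.8 CPM with the 5-mutation hairpin. The empty vector libraries (588 to 646 CPM) overlapped the unmutated group and lay far above the 5-mutation group (2.81 ± 0.06, adjusted p = 4.82e-20).

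Sdk2, a synaptic adhesion molecule of the immunoglobulin superfamily, was at 74.5 to 92.3 CPM with the unmutated hairpin, 10.1 to 11.4 CPM with the 5-mutation hairpin and a mean of 85.6 CPM with the empty vector (3.02 ± 0.07, adjusted p = 2.55e-19). Slc7a3, a transporter of cationic amino acids, was at 48.7, 35.0, 37.8 and 48.7 CPM against 6.17, 5.14, 4.03 and 4.79 CPM. Its empty vector mean, 27.2 CPM, lay between the groups (3.07 ± 0.16, adjusted p = 1.08e-10). Deptor and Eif4ebp1, which encode an mTOR inhibitor and a translation repressor controlled by mTOR, also had empty vector means between the groups, at 21.7 and 8.90 CPM. Their log2 fold changes were 2.84 ± 0.14 (adjusted p = 3.29e-11) and 2.78 ± 0.15 (adjusted p = 7.77e-12).

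Tug1, a long noncoding RNA, was at 288, 300, 284 and 312 CPM with the unmutated hairpin and at 44.8, 48.3, 44.4 and 44.7 CPM with the 5-mutation hairpin, with an empty vector mean of 257 CPM (2.701 ± 0.05, adjusted p = 1.09e-20). It overlaps Morc2a on the opposite strand. Trp53inp2, which takes part in autophagy, had 304 to 327 CPM against 43.6 to 49.7 CPM (2.76 ± 0.05, adjusted p = 8.69e-21). Hrk, a pro-apoptotic BH3-only protein, had 116 to 140 CPM against 18.2 to 24.96 CPM (2.57 ± 0.14, adjusted p = 6.6e-10). Dnm3, a dynamin of the synapse, was at 161 ± 10.7 against 26.6 ± 3.21 CPM (2.59 ± 0.07, adjusted p = 2.32e-17), and it overlaps Dnm3os and microRNA genes on the opposite strand. For 13 of the 15 highest genes the empty vector mean was nearer the unmutated group.

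**Figure D2:**
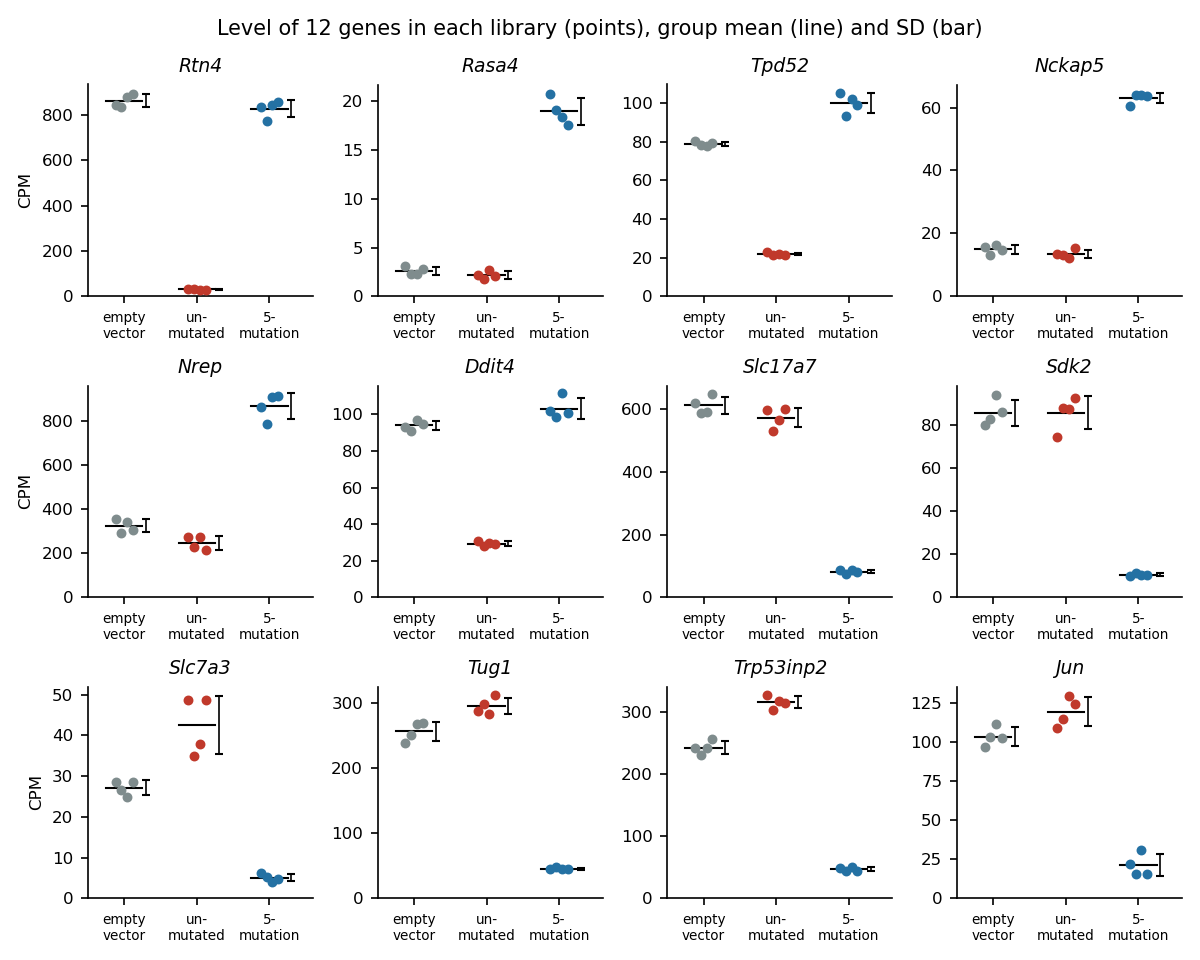
CPM (vertical axis, from 0) of 12 genes in each library of the empty vector, unmutated and 5-mutation groups. Points are libraries, horizontal lines group means and bars 1 SD (n = 4). Rtn4 is low in the unmutated libraries alone, whereas Slc17a7, Sdk2 and Tug1 are low in the 5-mutation libraries alone.

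By difference in CPM, which weighs long and abundant transcripts, the genes lower with the unmutated hairpin were Gm26917, Dpysl3, Rtn4, Nrep and Meg3. Dpysl3 (CRMP4), a cytosolic protein of growing axons, was at 935 ± 71.7 against 2270 ± 116 CPM with an empty vector mean of 1481 CPM (-1.28 ± 0.06, adjusted p = 1.07e-13). Nrep, which is expressed in regenerating neurons, was at 246 ± 31.8 against 865 ± 57.8 CPM with an empty vector mean of 324 CPM (-1.81 ± 0.08, adjusted p = 3.8e-12). Neither gene's groups overlapped. Gm26917 took 7.37% to 8.02% of the counts with the unmutated hairpin and 7.995% to 9.16% with the 5-mutation hairpin, and these ranges overlapped (exact permutation test over the 8 libraries, 2-sided, p = 0.0571, where the smallest possible is 0.0286).

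In the other direction the genes included Malat1, Gnao1, Slc17a7 and Nptxr. Gnao1, the major G protein alpha subunit of neurons, was at 897, 901, 916 and 905 CPM with the unmutated hairpin and at 272, 258, 283 and 265 CPM with the 5-mutation hairpin. Its empty vector mean was 891 CPM (1.75 ± 0.04, adjusted p = 4.61e-19). Nptxr, a receptor of neuronal pentraxins, was at 1081 ± 68.1 against 608 ± 40.8 CPM (0.83 ± 0.06, adjusted p = 3.99e-11). Malat1 overlapped between the groups, because 5-mutation library 2 (6217 CPM) lay within the unmutated range (5577 to 6753 CPM).

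The 3′ UTRs of the genes that moved were then searched for short sequences, since seed pairing acts through such sites. The longest annotated 3′ UTR (GENCODE vM21, GRCm38) of 12441 protein-coding genes was scanned on its sense strand for each of 14868 7-mers found in at least 200 genes, by regression of the log2 fold change on the presence of the 7-mer with UTR length and GC content as covariates. The 7-mer that led the lower genes and the 7-mer that led the higher genes are in capitals in these stretches, each from the 3′ UTR of genes named here, because the rest of the description turns on them.
Rtn4, chr11:29743011-29743035, plus strand: ttttagttcATGAAACagcttaaga
Rtn4, chr11:29744091-29744115, plus strand: aaactgcaaATGAAACttttaaaaa
Rxfp1, chr3:79650337-79650361, minus strand: tctcgcagtATGAAACtcatttatg
Htr2a, chr14:74709334-74709358, plus strand: tgtgcactgATGAAACatatttata
Tpd52, chr3:8930894-8930918, minus strand: agttgatgaATGAAACaaagtgaaa
Slc17a7, chr7:45175474-45175498, plus strand: aaggctcgcCTAACCAattctacat
Slc17a7, chr7:45175509-45175533, plus strand: tggtttaacCTAACCAccaatgccg
Sdk2, chr11:113777150-113777174, minus strand: ttgccaagaCTAACCAaatagctgc
Sdk2, chr11:113776737-113776761, minus strand: acacccaccCTAACCAacacctcga
Ramp1, chr1:91223762-91223786, plus strand: gcagggtctCTAACCAgatgacacc
Sv2a, chr3:96195162-96195186, plus strand: gaagttaaaCTAACCAcaaaaagaa
Tmem47, chrX:81094746-81094770, plus strand: aaagagaaaCTAACCAtccaacaaa

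The 7-mer ATGAAAC was present in the 3′ UTR of 1562 genes (12.6% of those scanned), whose median log2 fold change was -0.13 against 0.01 for genes without it. Of the genes that held it, 46.4% were called lower, compared with 33.3% of the genes without it. CTAACCA was present in 1078 genes (8.7%), with a median of 0.27 against -0.03, and 58.0% of them were called higher, compared with 32.0% of the others. The 4 7-mers ranked next in each direction shared 5 or 6 successive letters with the leading 7-mer of that direction. Both were picked from these same fold changes, so their values are a description and no test was made. Neither was matched to a hairpin, whose sequence the labels do not give, and a match in a 3′ UTR does not show that a small RNA acts there.

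The shift was larger where the 7-mer occurred more often, in medians that were not adjusted for UTR length or GC content. For ATGAAAC the median log2 fold change was 0.01 in 10879 genes with no copy, -0.11 in 1325 genes with 1 copy and -0.24 in 237 genes with 2 or more. For CTAACCA the medians were -0.03 in 11363 genes, 0.26 in 976 genes and 0.45 in 102 genes. Of the genes called over 2-fold higher, 25.6% (170 of 663) held CTAACCA, and of those called over 2-fold lower 2.4% (11 of 461) did. ATGAAAC was held by 23.0% (106 of 461) of the genes over 2-fold lower and 11.8% (78 of 663) of the genes over 2-fold higher. Over 4-fold the shares of ATGAAAC were closer, at 18.9% (10 of 53) of the lower and 15.7% (13 of 83) of the higher genes, and those of CTAACCA were 3.8% (2 of 53) and 34.9% (29 of 83). Median UTR lengths over 2-fold were 1417 bases in the lower and 1885 bases in the higher genes.

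**Figure D3:**
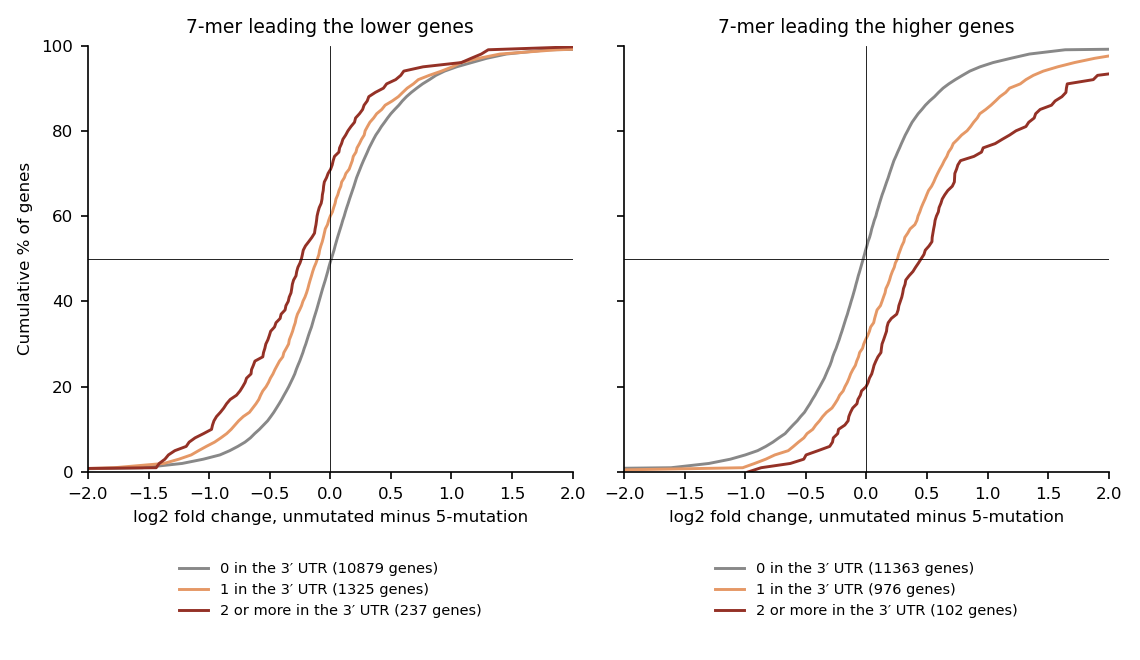
Cumulative distributions of the log2 fold change (horizontal axis, unmutated minus 5-mutation) by the number of copies of the leading 7-mer in the 3′ UTR. In the left panel the curve for genes with 2 or more copies lies to the left of the curve for none (medians -0.24 and 0.01), and in the right panel to the right (0.45 and -0.03).

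The 2 sets of genes differed in which group departed from the empty vector, given here side by side because both comparisons share those 4 libraries. Genes with CTAACCA had a median log2 fold change against the empty vector of -0.01 with the unmutated hairpin and -0.31 with the 5-mutation hairpin. Genes with ATGAAAC had a median of -0.15 with the unmutated hairpin and -0.04 with the 5-mutation hairpin. A score per library was the median log2 CPM, centred over all 16 libraries, of genes with the 7-mer minus that of genes without it. For CTAACCA the score was 0.06 to 0.12 in the unmutated libraries, -0.23 to -0.16 in the 5-mutation libraries, 0.10 to 0.13 with the empty vector and -0.01 to 0.03 with the 2-mutation hairpin. For ATGAAAC it was -0.16 to -0.07 in the unmutated libraries, 0.00 to 0.10 in the 5-mutation libraries, 0.08 to 0.12 with the empty vector and -0.06 to -0.01 with the 2-mutation hairpin. On each score the unmutated and 5-mutation libraries did not overlap, and the 2-mutation libraries lay between them. Because the 7-mers were picked from the fold changes between the unmutated and 5-mutation libraries, a gap between those groups follows from the choice and is no test.

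**Figure D4:**
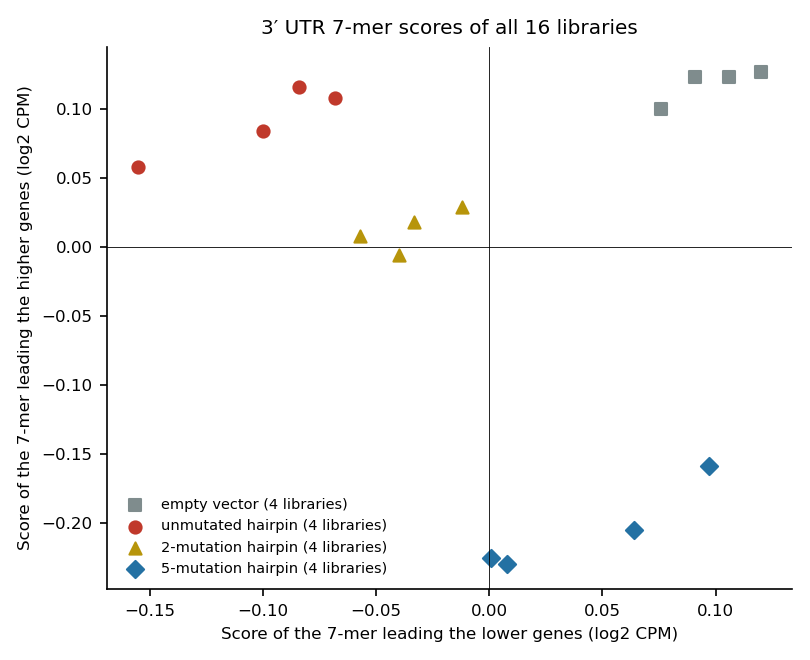
Score of the 7-mer that led the higher genes (vertical axis) against that of the 7-mer that led the lower genes (horizontal axis), both in log2 CPM, for all 16 libraries. Each point is a library, and the 4 groups occupy separate regions, with the 5-mutation libraries lowest on the vertical axis (-0.23 to -0.16) and the unmutated libraries lowest on the horizontal axis (-0.16 to -0.07). The 7-mers were picked from the unmutated and 5-mutation libraries shown here, so the gap between those groups is no test.

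Among the genes named above, 5 of the 15 lowest held ATGAAAC (Rtn4, Rxfp1, Htr2a, Nckap5 and Tpd52) and 1 held CTAACCA (Tpd52). Of the 14 highest genes with an annotated UTR, 6 held CTAACCA, among them Slc7a3, Sdk2, Slc17a7, Ramp1 and Tmem47, and 3 held ATGAAAC, among them Dnm3 and Tnc. Rasa4, Crispld2, Cort, Deptor, Cpne8, Trp53inp2 and Hrk held neither. Seed matches of 28 listed microRNAs, such as the 3 neural ones printed here with the seed (bases 2 to 8) in capitals, went with small shifts only. The mature sequences are from RefSeq (GRCm38.p6).
mmu-let-7a-5p: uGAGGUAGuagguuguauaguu
mmu-miR-9-5p: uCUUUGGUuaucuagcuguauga
mmu-miR-125b-5p: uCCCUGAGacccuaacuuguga
Genes with a match to any of the 28 seeds had medians that differed from genes without it by -0.03 to 0.06, and none by more than 0.1. For the let-7a seed the medians were -0.01 with and -0.01 without a match.

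The genes of small RNA processing and silencing moved in both directions, with 9 called higher and 10 lower of 27 tested and a median log2 fold change of -0.03. The slicer Ago2 was at 516 ± 30.5 CPM with the unmutated hairpin, 386 ± 8.20 CPM with the 5-mutation hairpin and a mean of 354 CPM with the empty vector (0.42 ± 0.05, adjusted p = 2.36e-07). Ago1 (0.51 ± 0.04, adjusted p = 1.19e-10) and Ago3 (0.42 ± 0.07, adjusted p = 3.16e-05) were also higher, and Ago4 was lower (-0.56 ± 0.07, adjusted p = 3.62e-07). Drosha, which cuts primary microRNAs, was higher by 0.18 ± 0.04 (adjusted p = 0.000197). Dicer1, at 128 against 122 CPM, the exporter Xpo5, at 75.3 against 76.8 CPM, and Dgcr8, at 31.4 against 33.1 CPM, were not called. Cnot6 (-0.92 ± 0.05, adjusted p = 2.82e-13) and Pan2 (-0.88 ± 0.05, adjusted p = 2.46e-12), catalytic subunits of deadenylase complexes, and the exonuclease Xrn1 (-0.43 ± 0.05, adjusted p = 1.51e-07) were lower.

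Of 30 microRNA host transcripts tested, 17 fell and 8 rose (median -0.24). Rian, a noncoding RNA of the imprinted Dlk1-Meg3 locus that hosts small RNAs, was at 643 ± 35.1 against 1077 ± 54.6 CPM with an empty vector mean of 1086 CPM (-0.74 ± 0.04, adjusted p = 1.88e-12). Mirg, from the same locus, was at 29.2 ± 2.05 against 54.7 ± 3.36 CPM (-0.91 ± 0.06, adjusted p = 1.77e-11). Between the start of Meg3 and the end of Mirg (GRCm38 chromosome 12, 109541001 to 109749460), 22 of 41 tested genes annotated as microRNAs were lower and 0 were higher, with log2 fold changes from -1.49 to -0.55. Elsewhere 20 of 110 such genes were lower. All 22 had means of at most 3.16 CPM, and these total RNA libraries do not separate a mature microRNA from its precursor or host. The list of that locus with other abundant long noncoding RNAs held 4 higher and 9 lower of 18, including Miat (-1.41 ± 0.12, adjusted p = 1e-07) among the lower and Tug1 among the higher. Of 24 genes listed as repressed by miR-124, 7 rose and 6 fell (median -0.01).

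Excitatory neuron markers were more often higher than lower, with 11 higher and 4 lower of 20 tested (median 0.30). Their summed level was 2863 to 2972 CPM with the unmutated hairpin, 1876 to 1951 CPM with the 5-mutation hairpin and 3289 to 3652 CPM with the empty vector. Besides Slc17a7, Rasgrf2 (1.33 ± 0.06, adjusted p = 1.81e-14) and the cortical layer 6 factor Tbr1 (0.74 ± 0.06, adjusted p = 2.15e-10) rose. Camk2a, the kinase of excitatory synapses, rose from 431 ± 22.2 to 686 ± 24.98 CPM (0.67 ± 0.05, adjusted p = 4.48e-10). The subcortical transporter Slc17a6 (VGLUT2), named after its value was seen, fell (log2 fold change -1.05). In bulk RNA, fewer cells of a type and less RNA per cell cannot be told apart.

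Inhibitory neuron markers were split, with 6 higher and 5 lower of 26 (median 0.01), or 11 higher with no filter on low counts. Their summed levels overlapped at 682 to 955 and 817 to 996 CPM, and both groups lay below the empty vector, at 1779 to 2076 CPM. Against the empty vector, the list's median was -1.09 with the unmutated hairpin and -1.50 with the 5-mutation hairpin. The interneuron peptide Sst was at 24.2 ± 5.13 against 64.7 ± 3.39 CPM with an empty vector mean of 68.6 CPM (-1.42 ± 0.11, adjusted p = 5.92e-09). The receptor tyrosine kinase Kit also fell (-1.86 ± 0.07, adjusted p = 3.08e-14), while the transcription factor Prox1 rose (2.10 ± 0.20, adjusted p = 5.02e-07). The serotonin receptor Htr3a rose at a low level, 6.29 ± 0.35 against 0.65 ± 0.20 CPM (3.23 ± 0.17, adjusted p = 5.95e-13). Of 20 pan-neuronal genes, 6 rose and 9 fell (median -0.11). Rbfox3, which encodes the neuronal nuclear antigen NeuN, was at 106 ± 2.39 against 31.4 ± 0.87 CPM with an empty vector mean of 150 CPM (1.76 ± 0.04, adjusted p = 9.5e-19). Within the Elavl family of neuronal RNA-binding proteins, Elavl3 rose (0.97 ± 0.04, adjusted p = 7.7e-15), and Elavl2 (-1.08 ± 0.04, adjusted p = 6.38e-15) and Elavl4 (-1.39 ± 0.05, adjusted p = 1.95e-15) fell.

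Of 30 presynaptic genes, 17 rose and 8 fell (median 0.25). The synaptic vesicle protein Sv2a, one of the genes with CTAACCA shown above, was at 502 ± 7.95 against 128 ± 3.33 CPM with an empty vector mean of 506 CPM (1.97 ± 0.04, adjusted p = 4.82e-20). Complexin 2 (Cplx2), which clamps SNARE complexes, was at 465 ± 26.0 against 93.2 ± 5.16 CPM with an empty vector mean of 537 CPM (2.32 ± 0.06, adjusted p = 1.15e-18). The dynamin Dnm1, which overlaps Ciz1 on the opposite strand, rose by 1.26 ± 0.04 (adjusted p = 8.47e-18). All 3 were low in the 5-mutation group and nearer the empty vector in the unmutated group. Of 24 postsynaptic scaffold and adhesion genes, 11 rose and 2 fell (median 0.07), with Dlg2 (PSD-93) higher by 0.74 ± 0.04 (adjusted p = 6.08e-13) and Homer1 lower by 0.61 on the log2 scale (-0.61 ± 0.06, adjusted p = 5.76e-09).

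Receptors and channels were divided more evenly. Ionotropic glutamate receptor genes had 4 higher and 6 lower of 17 (median -0.02), with the AMPA receptor subunit Gria2 lower (-0.54 ± 0.08, adjusted p = 6.58e-06). Metabotropic glutamate receptor genes had 2 higher and 3 lower of 7 (median 0.03), and Grm2 fell from 42.8 ± 3.55 to 14.7 ± 4.11 CPM (-1.55 ± 0.16, adjusted p = 6.82e-07). Of 14 GABA receptor genes, 5 rose and 6 fell (median -0.06). The alpha subunit gene Gabra3 fell (-0.63 ± 0.05, adjusted p = 3.65e-10). Voltage-gated sodium and calcium channel genes had 12 higher and 7 lower of 23 (median 0.19), among them Scn8a (0.72 ± 0.05, adjusted p = 2.93e-11) and Cacna1g (-0.80 ± 0.04, adjusted p = 5.84e-13). Potassium and HCN channel genes had 14 higher and 8 lower of 33 (median 0.14), with Kcnma1, the pore of the BK channel, higher by 1.54 ± 0.06 (adjusted p = 4.33e-15) while its auxiliary subunit Kcnmb2 was among the largest falls.

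Neuropeptide genes had 4 higher and 7 lower of 20 (median -0.09), and 7 higher without 5-mutation replicate 2. Cartpt was at 6.86 ± 3.14 against 0.27 ± 0.09 CPM (4.64 ± 0.37, adjusted p = 6.93e-09). Neurotrophins and their receptors had 3 higher and 4 lower of 10 (median -0.31), with Sorcs1 higher (1.85 ± 0.08, adjusted p = 2.87e-13) and Ntf3, which encodes neurotrophin 3, lower (-1.95 ± 0.17, adjusted p = 1.47e-09). Of 36 axon guidance genes, 15 rose and 16 fell (median 0.07), including the netrin receptor Unc5b (1.31 ± 0.07, adjusted p = 3.19e-12) and the semaphorin Sema3c (1.63 ± 0.09, adjusted p = 4.5e-12) among those higher, and Epha3 (-0.83 ± 0.04, adjusted p = 7.2e-13) and Plxna2 (-0.62 ± 0.04, adjusted p = 2.67e-11) among those lower.

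Immediate early genes had 5 higher and 9 lower of 21 (median -0.15). Jun was at 119 ± 9.39 against 21.1 ± 7.05 CPM with an empty vector mean of 103 CPM (2.51 ± 0.17, adjusted p = 1.51e-08), and Jund rose (0.95 ± 0.08, adjusted p = 2.6e-09). Junb (-0.90 ± 0.10, adjusted p = 4.2e-07) and Nr4a3 (-0.99 ± 0.11, adjusted p = 2.03e-06) fell. Without 5-mutation libraries 2 and 3, 8 immediate early genes were higher and 8 lower. Of 19 ERK pathway feedback and output genes, 7 rose and 8 fell (median -0.16). The ERK phosphatase Dusp6 was at 52.7 ± 10.9 against 116 ± 12.6 CPM, and its empty vector mean, 24.0 CPM, lay below both (-1.14 ± 0.13, adjusted p = 2.28e-06). Dusp5 had the same order, at 8.55, 22.9 and 2.72 CPM in the unmutated, 5-mutation and empty vector groups (-1.42 ± 0.09, adjusted p = 3.42e-12).

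Of 28 unfolded protein and integrated stress response genes, 16 rose and 6 fell (median 0.42). Chac1, a glutathione-degrading enzyme, was at 33.0 ± 4.27 against 6.94 ± 1.08 CPM with an empty vector mean of 18.7 CPM (2.26 ± 0.10, adjusted p = 2.25e-13). Herpud1, a component of degradation at the endoplasmic reticulum, rose (1.27 ± 0.07, adjusted p = 4.89e-13). Ddit4 (REDD1), an inhibitor of mTOR, was at 29.4 ± 1.19 against 103 ± 5.74 CPM (-1.81 ± 0.04, adjusted p = 1.01e-18), and the disulfide isomerase Pdia6 fell as well (-1.23 ± 0.05, adjusted p = 1.71e-14). The list's median against the empty vector was 0.32 with the unmutated hairpin and -0.33 with the 5-mutation hairpin.

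Of 23 p53 target and apoptosis genes, 14 rose and 5 fell (median 0.32). Cyclin G1 (Ccng1) was at 125 ± 14.7 against 23.1 ± 4.18 CPM with an empty vector mean of 114 CPM (2.44 ± 0.11, adjusted p = 1.81e-11). Zmat3, a p53-induced RNA-binding protein, was at 311 ± 22.2 against 95.4 ± 5.01 CPM (1.71 ± 0.05, adjusted p = 6.31e-17), and the pro-apoptotic Bcl2l11 (BIM) rose (0.82 ± 0.07, adjusted p = 1.19e-09). Axon injury and regeneration genes had 8 higher and 4 lower of 17 (median 0.31), with the cytokine receptor Lifr higher (2.202 ± 0.07, adjusted p = 5.09e-16) and the developmental transcription factor Sox11 lower (-1.77 ± 0.06, adjusted p = 1.57e-16). Heat shock genes had 2 higher and 4 lower of 13 (median -0.06), including Hspa1b (-1.06 ± 0.19, adjusted p = 0.000109).

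Of 25 cholesterol synthesis genes, 18 rose and 3 fell (median 0.34). Msmo1, a sterol oxidase, was at 136 ± 22.6 against 59.4 ± 6.94 CPM (1.19 ± 0.12, adjusted p = 4.25e-07), and the isomerase Idi1 was at 27.1 ± 5.596 against 12.4 ± 1.73 CPM (1.12 ± 0.13, adjusted p = 1.21e-06). Both had higher empty vector means, of 171 and 39.8 CPM. Against the empty vector, the list's median was -0.62 with the unmutated hairpin and -1.12 with the 5-mutation hairpin. Nuclear-encoded oxidative phosphorylation genes had 15 higher and 3 lower of 27 (median 0.17), with cytochrome c (Cycs) higher (0.60 ± 0.06, adjusted p = 1.04e-08) and Cox6c lower (-0.75 ± 0.05, adjusted p = 4.31e-11). Glycolysis genes had 7 in each direction of 21 (median 0.00), including the neuronal enolase Eno2 (0.90 ± 0.04, adjusted p = 2.48e-14) and the phosphofructokinase Pfkp (-0.72 ± 0.06, adjusted p = 4.86e-10).

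Lysosome and autophagy genes had 14 higher and 4 lower of 27 (median 0.18), with Wipi1, an autophagosome factor, higher (1.91 ± 0.07, adjusted p = 1.1e-15), cathepsin B (Ctsb) higher (1.05 ± 0.06, adjusted p = 1.06e-12) and the lysosomal glucosidase Gaa lower (-0.59 ± 0.04, adjusted p = 6.93e-11). Ctsb overlaps Fdft1 on the opposite strand. Of 34 chromatin regulator genes, 18 rose and 9 fell (median 0.15). The histone demethylase Kdm5c rose (1.17 ± 0.04, adjusted p = 1.38e-16), and Kdm6b fell (-0.71 ± 0.05, adjusted p = 9.05e-12). Cytosolic ribosomal protein genes had 9 higher and 2 lower of 32 (median 0.09), and without 5-mutation replicate 3 alone 15 were higher. Extracellular matrix and perineuronal net genes had 10 higher and 7 lower of 27 (median 0.04), with tenascin R (Tnr), a perineuronal net glycoprotein, higher by 1.62 ± 0.13 (adjusted p = 5.21e-08) and the hyaluronan synthase Has3 lower (-1.88 ± 0.10, adjusted p = 3.83e-13).

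**Figure D5:**
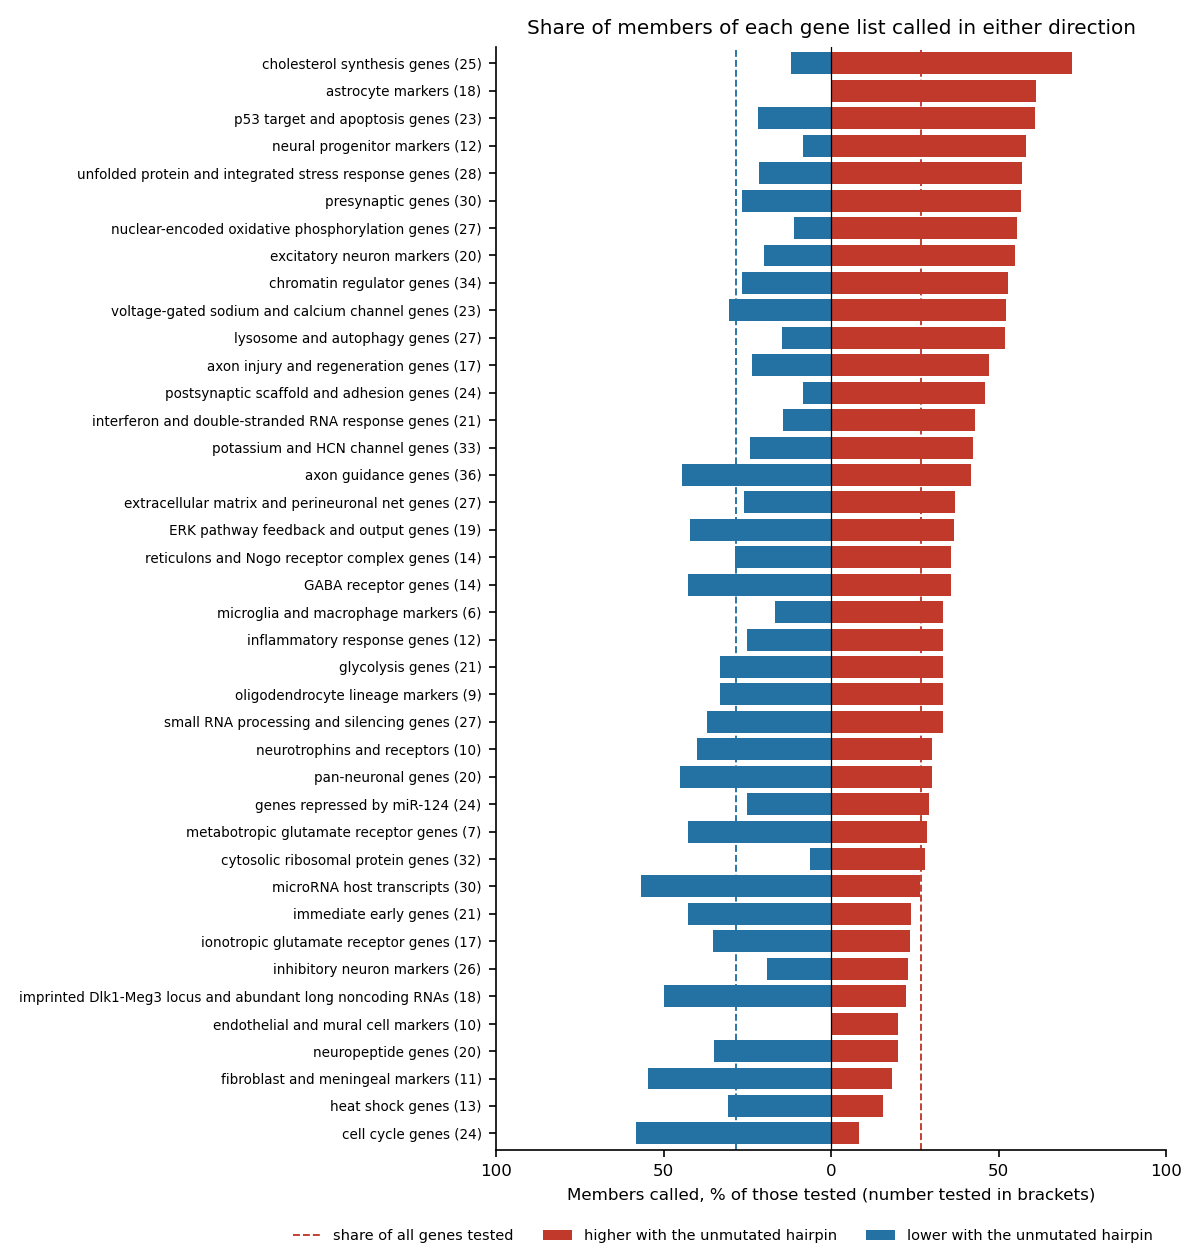
Share of the tested members of 40 gene lists that were called higher (red, to the right) or lower (blue, to the left) with the unmutated hairpin, in percent, with the number tested in brackets. Dashed lines mark the shares over all genes, 26.8% higher and 28.5% lower. Protein-coding genes taken alone had larger shares, with 4662 higher and 4730 lower of 14470, so a bar just past a line is near that background. Cholesterol synthesis genes and astrocyte markers have the longest red bars (18 of 25 and 11 of 18), and cell cycle genes the longest blue bar (14 of 24).

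Markers of glia and other cells moved with the hairpins too. Of 18 astrocyte markers tested, 11 rose and 0 fell (median 0.78), and 8 rose without 5-mutation libraries 2 and 3. Their summed level was 1333, 1257, 1193 and 1711 CPM in the unmutated libraries, 849, 669, 1062 and 1032 CPM in the 5-mutation libraries and 1333 to 1720 CPM with the empty vector. The groups did not overlap (exact permutation test, 2-sided, p = 0.0286, the smallest possible, adjusted p = 0.0571 over 10 such measures). The astrocyte membrane protein Mlc1 was at 40.6 ± 7.596 against 11.1 ± 4.29 CPM (1.89 ± 0.28, adjusted p = 6.4e-05), and the glycolytic enzyme Aldoc at 45.8 ± 12.3 against 24.3 ± 3.85 CPM (0.92 ± 0.17, adjusted p = 0.000452). Of the 17 astrocyte markers with a scanned 3′ UTR, 5 held CTAACCA and 4 held ATGAAAC. Mlc1 and Aldoc held CTAACCA, and Fgfr3, which also rose (1.21 ± 0.21, adjusted p = 0.000199), did not. How far a change in astrocyte RNA contributed to the other groups of genes was not tested.

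Neural progenitor markers had 7 higher and 1 lower of 12 (median 0.77), with Sox1 (1.20 ± 0.12, adjusted p = 4.66e-08) and Sox2 (0.91 ± 0.16, adjusted p = 9.86e-05) higher and Hes5 lower (-1.51 ± 0.21, adjusted p = 1.96e-06). Cell cycle genes had 2 higher and 14 lower of 24 (median -0.40). The S-phase regulator E2f1 fell (-0.67 ± 0.05, adjusted p = 1.04e-10), as did cyclin E1 (Ccne1, -0.63 ± 0.07, adjusted p = 2.02e-07), and the replication helicase subunit Mcm6 rose (0.997 ± 0.06, adjusted p = 3.47e-12). Oligodendrocyte lineage markers had 3 in each direction of 9 (median -0.16), or 5 higher without unmutated replicate 2 or 5-mutation replicate 1, with summed levels of 88.0 to 107 and 92.4 to 111 CPM. Olig2, a factor of progenitors, rose (2.01 ± 0.16, adjusted p = 5.55e-10), and myelin basic protein (Mbp) fell (-0.91 ± 0.06, adjusted p = 2.79e-11).

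Fibroblast and meningeal markers had 2 higher and 6 lower of 11 (median -1.80), but the lower calls rested on 1 library. Their summed level was 252.7 CPM in 5-mutation library 3 and 49.3 to 81.5 CPM in the other 3 libraries of that group, against 80.1 to 113 CPM with the unmutated hairpin. Leaving out 5-mutation replicate 3 left 0 of these genes lower, and so did leaving out libraries 2 and 3 together or unmutated replicate 1 or 4. The collagen Col3a1 had a log2 fold change of -2.42 ± 0.85 (adjusted p = 0.0287) with all libraries and of -1.07 (adjusted p = 0.196) without 5-mutation replicate 3. Dcn (decorin) was higher with the unmutated hairpin (1.504 ± 0.27, adjusted p = 0.000308).

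Microglia and endothelial markers were near the limit of detection. All 16 microglia and macrophage markers listed summed to 21.6 to 27.7 CPM over the 8 libraries. Of the 6 that were tested, 2 were higher and 1 lower (median 0.39). Tyrobp had no count in any of the 8 libraries, and C1qa, Cx3cr1, P2ry12 and Tmem119 did not pass the filter. Endothelial and mural cell markers had 2 higher and 0 lower of 10 (median -0.25), at summed levels of 7.38 to 20.7 CPM. Interferon and double-stranded RNA response genes had 9 higher and 3 lower of 21 tested among 31 listed (median 0.48). Isg15, Irf7, Oas2 and Rsad2 were among those that did not pass the filter. The list's summed levels overlapped, at 60.5 to 69.8 against 60.0 to 65.3 CPM. Ifi27, among the lower, was at 3.78 ± 0.54 against 6.23 ± 0.53 CPM (-0.72 ± 0.12, adjusted p = 1.68e-05). Mavs, the mitochondrial adaptor of the RIG-I pathway, was at 6.13 ± 0.60 against 2.49 ± 0.29 CPM (1.30 ± 0.12, adjusted p = 3.51e-09), and Tlr3, a sensor of double-stranded RNA, at 2.16 ± 0.38 against 0.78 ± 0.25 CPM (1.498 ± 0.21, adjusted p = 2.03e-06). Inflammatory response genes had 4 higher and 3 lower of 12 (median 0.69), or 7 higher with no filter on low counts or without 5-mutation replicate 3, with the adhesion molecules Vcam1 (1.62 ± 0.21, adjusted p = 6.55e-06) and Icam1 (1.41 ± 0.23, adjusted p = 3.11e-05) among the higher.

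Sex-linked genes, read as a check of the make-up of the cultures, had 0 higher and 3 lower of 5 (median -0.29). Xist was at 966, 1061, 1104 and 1090 CPM with the unmutated hairpin and at 1261, 1423, 1212 and 1259 CPM with the 5-mutation hairpin. The sum of 4 Y-linked genes was 71.1 to 80.3 CPM against 84.8 to 93.3 CPM. Both measures were higher in every 5-mutation library (exact permutation p = 0.0286 each, adjusted p = 0.0571). The share of counts outside protein-coding genes was 11.6% to 12.1% against 12.7% to 13.4%.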

How the data were processed

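Total RNA from 16 libraries was analysed, and the comparison uses 8. The deposited table holds raw counts that the authors made per gene, as whole numbers. Per the submitters' processing notes, the tools were STAR 2.7.2b, cutadapt 1.15, Trim Galore 0.6.0, bcl2fastq 2.20.0.422 and, without a version, featureCounts and edgeR, and the build was GRCm38.p6. The strand setting and annotation release are not given in the sources used here. The 37 mitochondrial genes of the table have 0 counts throughout and are not measured.

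The quasi-likelihood model of edgeR 4.0.16 under R 4.3.3 took all 16 libraries, with TMM factors, genes kept by filterByExpr and 1 coefficient a group, and was tested 2-sided with Benjamini-Hochberg adjustment over 19479 genes. Counts of a single library are precise at these depths, and replicates differed by more than counting noise, so no library was counted as a copy. In simulated data of 19068 genes, 49 of 98 genes planted at a log2 change of 0.5 and 76 of 96 planted at 1 were called, with 8 unchanged genes called. The simulation planted changes in 200 genes, far fewer than the 10771 called here, which makes its adjusted threshold stricter. Its rates are therefore not the sensitivity of the reported comparison. Symbols, positions and UTRs came from GENCODE vM21, and 54587 of 55335 gene IDs matched with their version.

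Genes named are the 15 highest and 15 lowest changes among called genes whose log2 CPM averaged at least 2, with non-overlapping groups and a symbol that is no predicted, clone or Riken name, up to 4 members with the smallest p in each of 41 lists, all reticulon and small RNA genes as far as space allowed, and the 5 largest differences in CPM each way. A few genes picked by this rule are left out of the text. The members and lists were chosen with earlier results of these data known. Medians and counts of lists are descriptions, with no test of a list. Single values per library were compared by exact permutation over 70 splits. Scans ran in Python 3.11.15 (pandas 2.3.3, numpy 2.4.6), and plots in matplotlib 3.10.9. In the 7-mer scan, 5 of 5 7-mers planted with a log2 shift of -0.3 in simulated, independent noise ranked first. That shift was larger than the regression coefficient of ATGAAAC (-0.196), so the check does not cover an effect of that size. Alternatives were other scaling factors, other filters, DESeq2 1.42.0, the 8 libraries alone, a replicate block and leaving out libraries.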

Additional observations from a re-analysis of the deposited data

Results flagged for a closer look

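Of 94 groups of 4 libraries examined, 5 had a library farther from the others than Dixon's critical value for the gap over the range, and chance alone gives about 1 in 20. The summed level of fibroblast and meningeal markers was 252.7 CPM in 5-mutation library 3, with the other 3 libraries at 49.3 to 81.5 CPM. In 5-mutation library 2, Tug1 was at 48.3 CPM against 44.4 to 44.8 CPM, and Crispld2 at 18.1 CPM against 19.8 to 20.1 CPM. Nckap5 was at 60.6 CPM in 5-mutation library 1, with the others at 63.6 to 64.0 CPM. Tnc, which encodes the matrix glycoprotein tenascin C, was at 26.9 CPM in unmutated library 1 and at 41.2 to 42.3 CPM in the other 3. For the 4 genes, no flagged value lay inside the range of the other hairpin. That follows from the naming rule, which took only genes with non-overlapping groups, and is no check of these values.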

How the results depend on the processing

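The counts of genes called stayed within 1.5 times the reported values under every alternative run, and no gene called in both fits changed sign. Leaving out each library in turn gave 10124 to 10854 genes called, 4941 to 5296 higher, 5183 to 5558 lower and 2153 to 2390 over 2-fold. It gave log2 fold changes of Rtn4 from -4.79 to -4.75 and differences of medians of -0.15 to -0.11 for ATGAAAC and 0.28 to 0.30 for CTAACCA. Other scaling factors, DESeq2, the 8 libraries alone and other filters gave 9666 to 10902 genes. Genes over 2-fold numbered 1480 with at least 1 CPM in at least 4 libraries and 2741 with no filter, because a filter changes how many low genes are tested. The deviations of same-numbered libraries correlated at 0.44, 0.23, -0.07 and 0.35, above 0.1 in 3 of 4 pairs, and 5 of the 8 libraries correlated best with their own number, a hint from the data and not the design. Since 1 pair fell short and the labels give no shared culture, the numbers were not treated as pairs, and pairing of some libraries was not tested further. A fit with the replicate block gave 11245 genes, 10709 of them shared, and 7 neuropeptide genes higher in place of 4. Small list counts also moved: 1 astrocyte marker was lower with no filter, or without unmutated replicate 4 or 5-mutation replicate 2, 1 metabotropic glutamate receptor gene was higher in place of 2 with upper-quartile factors or without any of 5 libraries, 2 neural progenitor markers were lower in place of 1 under 6 alternatives, and 5 cytosolic ribosomal protein genes were lower in place of 2 without 5-mutation replicate 2. The 7-mer values and the fits without 5-mutation libraries 2 and 3 together were chosen after seeing the data. Calls of Cd68, Col3a1, Lum, S1pr2 and Tnrc6a were lost under several alternatives.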
